A study of Homo sapiens with 8 samples.

Results

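The regions described here are 302 wide pairs of RBM45 CLIP peaks, in which a peak of wild-type (WT) replicate 1 and an overlapping peak of WT replicate 2 were both at least 80 bases wide. They were chosen by their widths from the 13758 shared pairs that the authors deposited, and so make up 2.20% of them (95% exact Clopper-Pearson interval 1.96 to 2.45, counting error only). The other 13456 pairs, in which at least 1 peak was narrower, served as the comparison. RBM45 binding was measured by an iCLIP protocol in HEK293T, a common laboratory line derived from human embryonic kidney, after transduction with a lentivirus for FLAG-HA-tagged human RBM45. Ultraviolet light of 254 nm at 300 mJ/cm2 cross-linked protein to RNA, and an antibody to the HA tag recovered both. The study holds 8 libraries in 4 groups of 2 replicates, CLIP and size-matched input from WT cells and from METTL3 knockout cells. METTL3 is the catalytic subunit of the enzyme complex that places most m6A on messenger RNA. Only the peak lists of the 2 WT CLIP libraries are used, so knockout cells enter no value. The input libraries are not used directly, but whether the authors' peak caller took input as control is not stated. Because no input value is set against a position here, a wide pair is a place where both CLIP lists have a broad peak. Binding and background cannot be told apart at single positions. The protein came from a transgene, and whether replicates were separate cultures is not stated in the labels. The depth behind the lists is unknown.

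RBM45 is an RNA-binding protein with several RNA recognition motifs that is found mostly in the nucleus and is known from work on neural development and motor neuron disease. In CLIP, ultraviolet light joins protein and RNA where they touch, and reads pile up near these contacts. A peak caller marks the stretch over which reads exceed its local background. A narrow peak can come from reads that stop at 1 contact, and a wide peak is a longer stretch that the caller marked as 1 region. Whether reads cover it without a gap was not checked. Width alone does not say how many molecules of protein were bound. All positions are in hg19, counted from 1, and no sequence is printed because an hg19 genome was not used here.

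Wide peaks were uncommon in either list, and most of them were not in a wide pair. The replicate 1 list had 10314 entries of at least 80 bases, 4.89% of its entries, where an entry is a peak on 1 strand. The replicate 2 list had 1281, or 1.95% of its entries. Of these wide replicate 2 entries, 839 (65.5%) overlapped a replicate 1 peak of the same strand by 1 base or more, and 301 (23.5%) belonged to a wide pair. In replicate 1 the same numbers were 2722 (26.4%) and 302 (2.93%), in a list with many more entries. The deposited pairs held 728 (7.06%) of the wide replicate 1 entries and 742 (57.9%) of the wide replicate 2 entries. Their rule asks that at least 50% of the replicate 1 peak be shared, which a wide replicate 1 peak over a much shorter replicate 2 peak cannot meet. Among the shared pairs, 426 had a wide peak in replicate 1 only and 471 in replicate 2 only. A wide peak in one list was therefore more often paired with a narrower one than with another wide one. A wide replicate 2 peak was more frequent where the replicate 1 peak was wide, but the overlap rule bears on this. Of the 728 pairs with a wide replicate 1 peak, 302 also had a wide replicate 2 peak. Of all 13758 shared pairs, 773 (5.62%) had a wide replicate 2 peak. Because the rule keeps short replicate 2 peaks from pairing with wide replicate 1 peaks, agreement of widths is not read from this difference. The 302 pairs were built from 292 distinct replicate 1 peaks and 291 distinct replicate 2 peaks, and they fall to 291 places when pairs that share a peak are counted once.

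**Figure D1:**
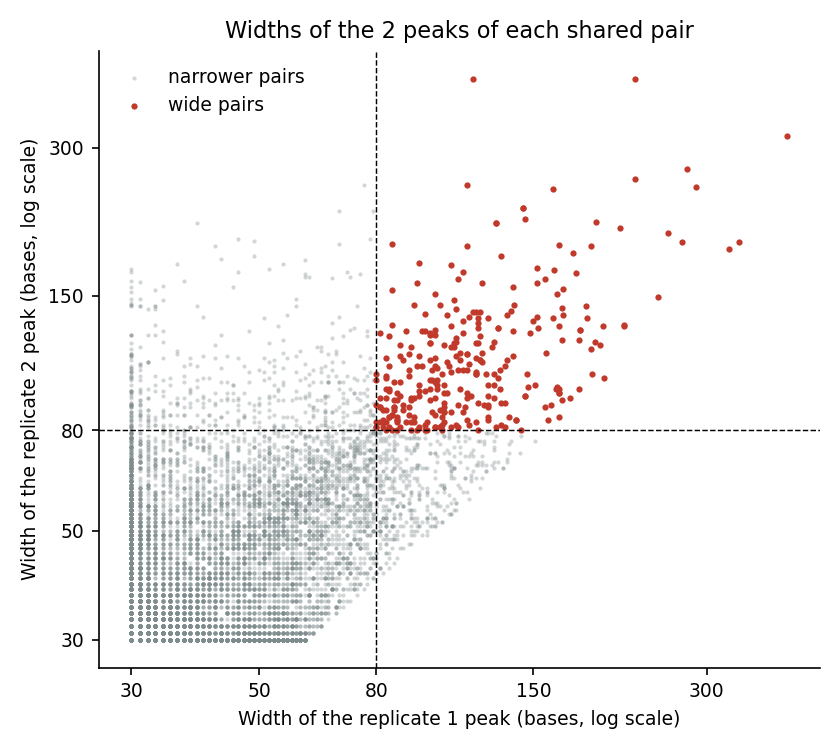
Width of the replicate 1 peak (bases, log scale) against width of the replicate 2 peak (bases, log scale), 1 point per shared pair, with dashed lines at 80 bases. The 302 wide pairs fill the upper right, and the empty lower right corner follows from the deposited rule that at least 50% of the replicate 1 peak is shared.

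Within the wide pairs the replicate 1 peaks ran from 80 to 414 bases with a median of 111 (interquartile range 95 to 135). Replicate 2 peaks ran from 80 to 414 bases with a median of 104 (89 to 129). In the narrower pairs both medians were 34 bases. The replicate 1 peak was the wider of the pair in 167 cases, the replicate 2 peak in 129, and 6 pairs had equal widths. Across wide pairs the Spearman correlation of the widths was 0.46, a description over 302 pairs that share libraries and a threshold. Most wide pairs were near the threshold. The narrower peak of the pair measured 80 to 99 bases in 171 of them, 100 to 149 in 109, and 150 to 317 in 22. The 69 pairs just inside the threshold, with a narrower peak of 80 to 84 bases, had median folds of 4.45 and 4.50 in replicates 1 and 2. The 116 pairs just outside it, at 75 to 79 bases, had 4.49 and 3.88.

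The 2 peaks of a wide pair covered much the same stretch but seldom began and ended at the same base. A median of 92 bases was shared (range 47 to 317), which is 87.2% of the replicate 1 peak and 94.1% of the replicate 2 peak at the median. The replicate 2 peak lay wholly inside the replicate 1 peak in 93 pairs, and the reverse held in 60. At least 80% of both peaks was shared in 149 wide pairs (49.3%), against 49.5% of narrower pairs, so by that measure the groups were alike. The ends were looser in bases. The 5′ ends were a median of 12 bases apart and the 3′ ends 8.5, against 4 and 3 in narrower pairs. Both ends fell within 5 bases of each other in 50 wide pairs (16.6%) and in 41.1% of narrower ones. How far ends can lie apart depends on width, by which the pairs were chosen. The coordinates were the same in both lists for a pair in EEF1D, which codes for the delta subunit of elongation factor 1, at chromosome 8, 144679062 to 144679181.

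The median fold enrichment of wide pairs was close to that of narrower pairs. Fold here is the enrichment that the authors' caller gave each peak relative to its background, and it comes from the same peaks as the widths, so it is described without a test. The median fold in wide pairs was 4.41 in replicate 1 (range 1.39 to 12.97) and 4.31 in replicate 2 (range 1.08 to 17.08). Narrower pairs had medians of 4.10 and 4.23, but their highest values reached 192 and 57.7. Both peaks exceeded 5-fold in 52 wide pairs (17.2%), while 13.9% of all 13758 shared pairs did, and nothing is read from this difference. Both exceeded 10-fold in 2 wide pairs (0.662%, against 0.334% of narrower pairs), and at least 1 did in 15 (4.97%, against 3.02%). Both were under 3-fold in 32 (10.6%, against 4.70%). The −log10 p of the caller had medians of 8.79 and 8.41 in wide pairs, and of 6.26 and 5.86 in narrower pairs. The folds of the 2 replicates lay within a factor of 2 in 252 wide pairs (83.4%, interval 78.8 to 87.5) and in 90.7% of narrower pairs.

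Gene names below rest on general knowledge of where these genes lie in hg19. The annotation used here, GENCODE 29, is on another build (GRCh38), so exons, introns and untranslated regions are not given. Properties that do not depend on the build were compared with it, and names that first disagreed were corrected, so the matches are not an independent check. The chromosome and the strand matched in 98 of 98 pairs given a gene, which cover 49 genes, 46 of them protein-coding. Among them, the VPS9D1 and VPS9D1-AS1 pairs are the same peaks listed on both strands. No neighbouring genes were out of order, and in 26 of 26 genes with several wide pairs the pairs spanned no more than the gene's length. The other 204 wide pairs are given no gene.

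Ranked by the narrower peak of the pair, the widest pair lay on chromosome X, minus strand. Its peaks measured 414 and 317 bases in replicates 1 and 2, with folds of 4.57 and 3.30. The replicate 2 peak lay wholly inside the replicate 1 peak. The next widest pairs were in SRCAP, YLPM1 and POLR2A. In SRCAP, the ATPase of a chromatin remodelling complex that exchanges histone H2A.Z, the pair at chromosome 16, 30748706 to 30748982, plus strand, was 277 and 272 bases wide. Its folds were 6.44 and 3.75. SRCAP held another wide pair at 30734925 to 30735086, of 162 and 247 bases. YLPM1, a gene for a nuclear protein, held a pair of 288 and 250 bases at chromosome 14, 75230657 to 75230944, plus strand, and its folds of 11.6 and 8.33 were among the 8 highest of all wide pairs by the lower of the 2 values. POLR2A, the largest subunit of RNA polymerase II, held 2 of the 5 widest pairs. They lay at chromosome 17, 7416807 to 7417031 and 7417117 to 7417341, plus strand, each 225 bases wide in replicate 1, with replicate 2 widths of 414 and 259 bases.

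The others among the 12 widest were in genes of several kinds. EEF1D, on the minus strand of chromosome 8, had a pair at 144675012 to 144675223, with widths of 212 and 206 bases and folds of 9.35 and 6.40. SRRM2, a large scaffold protein of nuclear speckles that takes part in splicing, had 257 and 201 bases at chromosome 16, 2811664 to 2811920, plus strand. In LENG8 the pair at chromosome 19, 54971272 to 54971543, plus strand, measured 272 and 193 bases. MBD3, a subunit of the NuRD chromatin complex, had 193 and 212 bases at chromosome 19, 1588861 to 1589053, minus strand. For CBS, the enzyme that joins homocysteine and serine to cystathionine, the pair at chromosome 21, 44480032 to 44480373, minus strand, measured 342 and 193 bases. GPI, the glycolytic enzyme glucose-6-phosphate isomerase, had 189 bases in both lists at chromosome 19, 34882807 to 34882995, plus strand. Its −log10 p values were 125 and 51.3, far above the medians of wide pairs. ARF3, a small GTPase of Golgi traffic, had 328 and 187 bases at chromosome 12, 49330448 to 49330775, minus strand.

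The widest pair of each remaining chromosome was narrower than these. On chromosome 2 it lay in XPO1, the main nuclear export receptor, at 61764714 to 61764889, minus strand, with 176 and 183 bases and folds of 2.88 and 2.22. Chromosome 1 had MARCKSL1, an actin-binding membrane protein gene, at 32799895 to 32800060, minus strand, with 166 and 190 bases. SERF2 gave the widest pair of chromosome 15, with 169 and 155 bases at 44085994 to 44086162, plus strand. On chromosome 9 it was FUBP3, a single-strand nucleic acid binding protein, with 185 and 143 bases and folds of 2.24 and 2.46. CPSF7, a subunit of the cleavage factor that helps choose 3′ ends, gave 138 and 156 bases on chromosome 11. A plus-strand pair at chromosome 7, 72389854 to 72389992, given by position only, had 139 and 144 bases. SPRN on chromosome 10 gave 152 and 136 bases. E2F3, a transcription factor of the cell cycle, gave 186 and 135 bases on chromosome 6, and DIAPH1, a formin that builds actin filaments, gave 150 and 133 bases on chromosome 5. DGCR8, the RNA-binding partner of DROSHA in microRNA processing, gave 168 and 122 bases on chromosome 22, with folds of 2.34 and 5.91. TBL1XR1, a corepressor subunit, gave 120 and 135 bases on chromosome 3. PCGF3, a Polycomb protein, gave 128 and 104 bases on chromosome 4. TFDP1, the partner of E2F factors, gave 101 and 151 bases on chromosome 13, and TCEA2, a transcription elongation factor, gave 99 and 125 bases on chromosome 20.

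Of the 8 pairs with the highest lower fold, 1 was also among the 12 widest. Median folds in the 22 pairs from 150 bases were 4.89 and 4.64, against 4.26 and 4.38 in the 171 pairs of 80 to 99 bases. The first by the lower of its folds was in SNRNP70, a protein of the U1 snRNP that marks 5′ splice sites, at chromosome 19, 49607295 to 49607410, plus strand. Its folds were 10.6 and 10.9, and its widths 116 and 109 bases. STRN4, a striatin that anchors a phosphatase complex, followed with 10.4 and 10.9 at chromosome 19, 47229676 to 47229832, minus strand. These were the 2 wide pairs above 10-fold in both lists. SH3PXD2A, an adaptor of cell protrusions, had 9.39 and 8.69. An SRRM2 pair at chromosome 16, 2818130 to 2818235, had 8.36 and 10.3, and PPFIA1, a liprin, had 8.36 and 10.5 at chromosome 11, 70217567 to 70217676, plus strand. A pair at chromosome 7, 99949535 to 99949672, plus strand, given by position only, had 8.33 and 9.47. SPG7, a mitochondrial protease subunit, had 7.52 and 10.5, and YLPM1 (above) was the other of the 8. At the low end, and chosen after the values were seen, a pair in MALAT1, an abundant nuclear noncoding RNA, at chromosome 11, 65268316 to 65268435, plus strand, had 120 and 129 bases but folds of 1.58 and 1.62. TRIM28, a corepressor gene, had 152 and 171 bases and folds of 1.82 and 2.85.

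Other wide pairs among the first 41 by width were also named after the values were seen. U2AF2, which recognises the polypyrimidine tract before 3′ splice sites, had a pair of 145 and 215 bases and another of 101 and 108. A further SNRNP70 pair measured 216 and 131 bases. USP36, a nucleolar deubiquitinase, had 2 pairs, the wider of 178 and 167 bases. WDR4, a subunit of a tRNA methyltransferase, had 3 wide pairs, the widest of 169 and 137 bases. ARID1A, a subunit of SWI/SNF remodelers, had 157 and 162 bases. KMT2D, a histone H3 lysine 4 methyltransferase, had 2 pairs, of 165 and 151 bases and of 198 and 130 bases. RNF167, a ubiquitin ligase, had 163 and 169 bases. GANAB, the catalytic subunit of glucosidase II, had 135 and 137, and DPM2, a subunit of dolichol-phosphate mannose synthase, had 132 and 181. The wider pair in KLHDC4 had 162 and 135 bases. PLD3, a lysosomal exonuclease gene, had 166 and 130 bases, and its replicate 1 fold of 12.97 was the highest of any wide pair while its replicate 2 fold was 4.54. No gene list was tested, and the genes that hold no wide pair were not compared with these.

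Wide pairs had more close neighbours than narrower pairs. Another shared pair lay within 1 kb on the same strand, sharing neither peak, for 171 of 302 wide pairs (56.6%, interval 50.8 to 62.3). The share in narrower pairs was 28.9% (28.2 to 29.7). The intervals treat pairs as independent, which neighbours in 1 pair of lists are not, and no test was run. The share rose with width rather than changing at 80 bases. It was 22.1% where the narrower peak had the minimum of 30 bases, 46.5% at 60 to 79 bases, 49.1% at 80 to 99, 65.1% at 100 to 149, and 72.7% (49.8 to 89.3) in the 22 pairs from 150 bases. Just inside and just outside the threshold it was 50.7% and 48.3%. Strength moved with this result, so the share was also taken within 4 equal classes of the lower −log10 p of a pair. Wide pairs had 51.4%, 40% (18 of 45), 54.9% and 63.6% from the weakest to the strongest class, and narrower pairs 22.7%, 26.6%, 29.1% and 37.7%. In class 2 the interval of wide pairs (25.7 to 55.7) takes in the value of narrower pairs. Within chromosome 19 the shares were 66.0% (31 of 47) and 40.7%, within chromosome 16 they were 68.8% and 37.7%, and within chromosome 1 they were 37.0% (19.4 to 57.6) and 27.8%.

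The order was the same in the full lists. These lists hold the peaks of the shared neighbours counted above, and entries outside shared pairs were not counted apart, so this is not separate evidence. Apart from the peaks of the pair, the replicate 1 list had an entry within 1 kb of 267 wide pairs (88.4%) and of 74.0% of narrower pairs. For replicate 2 the shares were 80.5% and 56.5%. Per pair there were a mean of 3.31 such replicate 1 entries around wide pairs and 1.91 around narrower pairs, and 2.33 and 1.15 such replicate 2 entries.

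**Figure D2:**
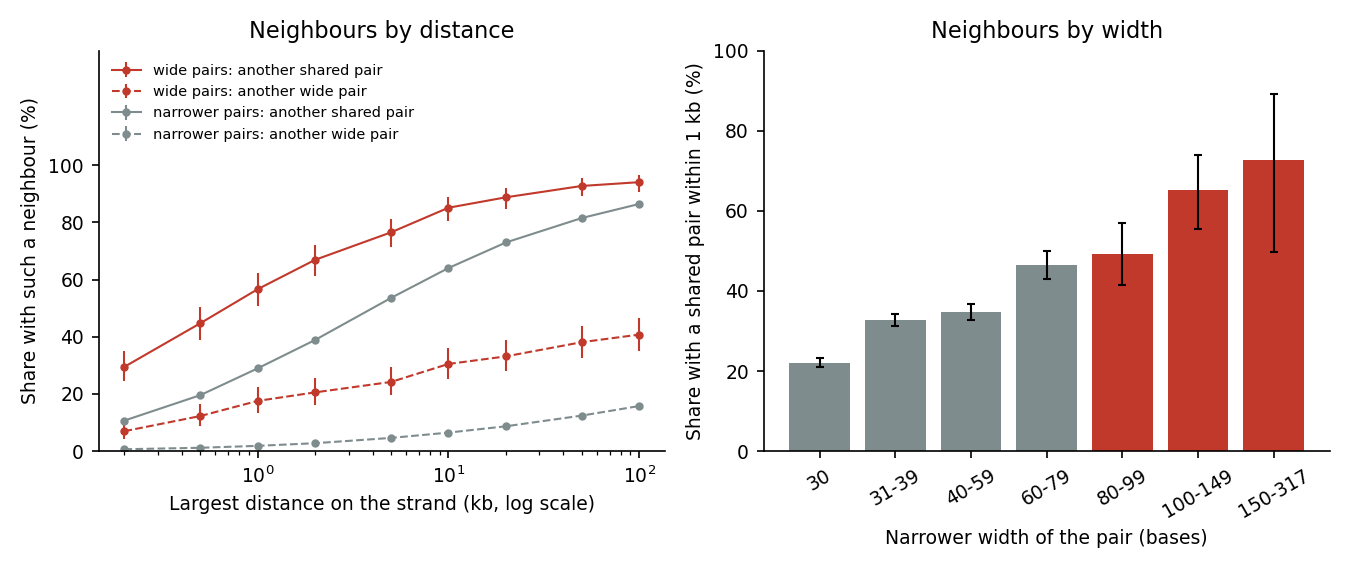
Left, share of pairs (%) with another shared pair (solid) or another wide pair (dashed) on the same strand, against the largest distance allowed (kb, log scale), for wide (red) and narrower pairs (grey). Right, share (%) with a shared pair within 1 kb by the narrower width of the pair (bases). Bars and lines carry 95% exact intervals, and the share goes from 22.1% at 30 bases to 72.7% in the widest class.

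Wide pairs were also near each other. Another wide pair lay within 10 kb on the strand for 92 wide pairs (30.5%, interval 25.3 to 36.0), while 6.46% of narrower pairs had a wide pair that close. Within 1 kb these shares were 17.5% and 1.83%, and within 100 kb 40.7% and 15.7%. Joining wide pairs within 10 kb gave 245 runs. In 210 of them a wide pair stood alone, 22 runs had 2 pairs, and 13 runs had 3 to 5 pairs and together held 48 wide pairs (15.9%).

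The runs are described by their span, a division made after they were seen. In 5 runs the wide pairs lay within 2 kb. POLR2A had 4 wide pairs and no narrower shared pair within 0.933 kb at chromosome 17, 7416409 to 7417341, where 1 replicate 2 peak of 414 bases was paired with 2 replicate 1 peaks of 225 and 118 bases. The minus-strand run of chromosome X with the widest pair had 4 wide pairs in 1.85 kb, again without narrower ones, and folds no higher than 4.57. ZNF767P is a transcribed pseudogene of a zinc finger family. It held 3 wide pairs within 1.16 kb at chromosome 7, 149313316 to 149314470, minus strand, with no narrower pair. Whether its relatives share reads with it was not tested. MAZ, a zinc finger transcription factor, had 3 wide and 2 narrower pairs within 0.874 kb at chromosome 16, 29821599 to 29822472, plus strand. SRRT, which links the cap-binding complex to RNA processing, had 3 and 2 within 1.95 kb at chromosome 7, 100479088 to 100481041, plus strand.

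The other runs spanned 4.12 kb or more, with 1 to 15 narrower pairs among the wide ones. EEF1D had 5 wide and 12 narrower pairs over 8.49 kb at chromosome 8, 144670688 to 144679181. CBS had 4 wide and 15 narrower pairs over 15.7 kb at chromosome 21, 44479590 to 44495291, and among its wide pairs the folds ran from 5.18 to 8.36 in replicate 1 and from 3.42 to 7.27 in replicate 2. GPI had 4 and 10 over 8.69 kb at chromosome 19, 34874309 to 34882998. SRRM2 had 4 and 6 over 8.74 kb at chromosome 16, 2811664 to 2820406, and MBD3 had 5 and 5 over 5.06 kb at chromosome 19, 1585685 to 1590745. HOXB3, a homeobox transcription factor, had 3 and 4 over 7.97 kb at chromosome 17, 46632221 to 46640187, minus strand. BCOR, a corepressor of the Polycomb type, had 3 and 2 over 4.12 kb at chromosome X, 39950758 to 39954877, minus strand. STRN4 had 3 wide and 1 narrower pair over 17.04 kb at chromosome 19, 47222780 to 47239817. The 6 runs of 3 wide pairs are all given, because they tie for the last place that the rule for named runs allowed.

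**Figure D3:**
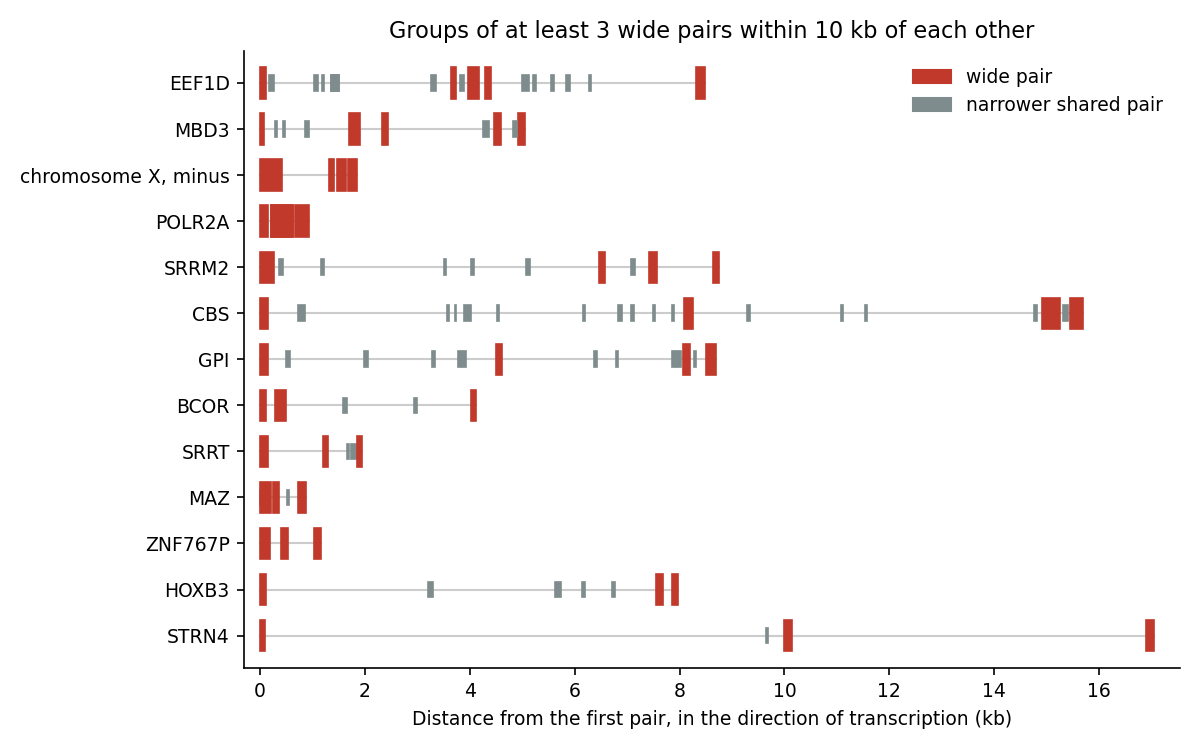
The 13 runs of at least 3 wide pairs, 1 line each, drawn to scale in kb from the first pair in the direction of transcription, with wide pairs as tall red blocks and narrower shared pairs as short grey ones. POLR2A, ZNF767P and the unnamed chromosome X run show red blocks only, while CBS and EEF1D have 15 and 12 grey blocks among their red ones.

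Wide pairs lay in windows with many shared pairs more often than narrower pairs did. On a fixed grid of 100-kb windows of 1 strand, 122 wide pairs (40.4%) and 20.2% of narrower pairs were in windows with at least 10 shared pairs. Of the 193 windows of that kind, 125 had no wide pair. Wide pairs make up 2.20% of all shared pairs, and how many windows would have none at that share was not worked out. Nothing is therefore read from the 125. The window with most shared pairs, chromosome 16, 89400001 to 89500000, minus strand, had 43, of which 2 were wide. Both are in ANKRD11, a chromatin regulator that had 4 wide pairs along its length, of 85 to 108 bases in replicate 2. Chromosome 2, 236400001 to 236500000, plus strand, had 36 shared pairs and 0 wide ones. In the plus-strand window of E2F3, chromosome 6, 20400001 to 20500000, 2 of 31 were wide, and in that of EIF4G3, chromosome 1, 21400001 to 21500000, minus strand, 2 of 33. The POLR2A window, chromosome 17, 7400001 to 7500000, lay at the other end with 4 wide pairs among 7. That of MBD3, chromosome 19, 1500001 to 1600000, had 5 among 17. The minus-strand window with HOXB3, chromosome 17, 46600001 to 46700000, had 5 among 24, of which 3 are given to HOXB3. Of the 229 windows with a wide pair, 25 had no other shared pair.

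Wide pairs were found on 22 of the 24 chromosomes that carried shared pairs, and their spread was uneven. Chromosome 19 held 47 of them, or 15.6% (interval 11.7 to 20.2), against 9.38% of narrower pairs. Chromosome 17 held 40, or 13.2% (9.63 to 17.6), against 9.43%, and chromosome 16 held 32, or 10.6% (7.36 to 14.6), against 6.75%. Together these 3 chromosomes held 39.4% of wide pairs (33.9 to 45.2) and 25.6% of narrower pairs (24.8 to 26.3). Each of them had a wide interval above the share of narrower pairs, so their joint share was bound to stand apart. Within the classes of lower −log10 p used above, the joint share of wide pairs was the higher in each class. In classes 1 and 3 its interval took in the share of narrower pairs (25.8% and 26.6%), and in classes 2 and 4 it lay above. Chromosome X held 17 wide pairs, 5.63% (3.31 to 8.86), against 2.82%. On chromosomes 3, 6, 10 and 22 the interval of the wide share lay below the share of narrower pairs. Chromosome 3 held 7 wide pairs (2.32%, 0.937 to 4.72) against 5.77%, and chromosome 22 held 9 (2.98%, 1.37 to 5.58) against 5.84%. On the other 16 chromosomes the interval took in the share of narrower pairs. Chromosome 18 had no wide pair among 128 shared pairs. The exact interval of that share reaches 2.84%, and 3 counts of 128 would be 2.34%. No test was run over chromosomes.

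Runs and the lists themselves bear on these shares. With each run of wide pairs within 10 kb counted once, and runs of narrower pairs likewise, chromosome 19 had 13.9% of wide runs (9.81 to 18.8) against 6.64%. Chromosome 17 had 13.9% against 8.08%, and chromosome 16 had 9.80% (6.38 to 14.2) against 5.51%. Chromosome X then had 10 runs, 4.08% (1.97 to 7.38), against 3.03%, so its interval took in the narrower share, and chromosomes 10 and 22 no longer lay apart. Wide entries of each whole list, shared or not, lay on chromosome 19 more often than entries of any width, at 10.4% against 5.95% in replicate 1 and 13.9% against 7.27% in replicate 2. On chromosome 22 the shares of wide entries were 5.99% and 5.46%, above those of all entries, 3.77% and 4.76%. The low share of wide pairs on chromosome 22 was thus not seen among the wide entries of either list.

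**Figure D4:**
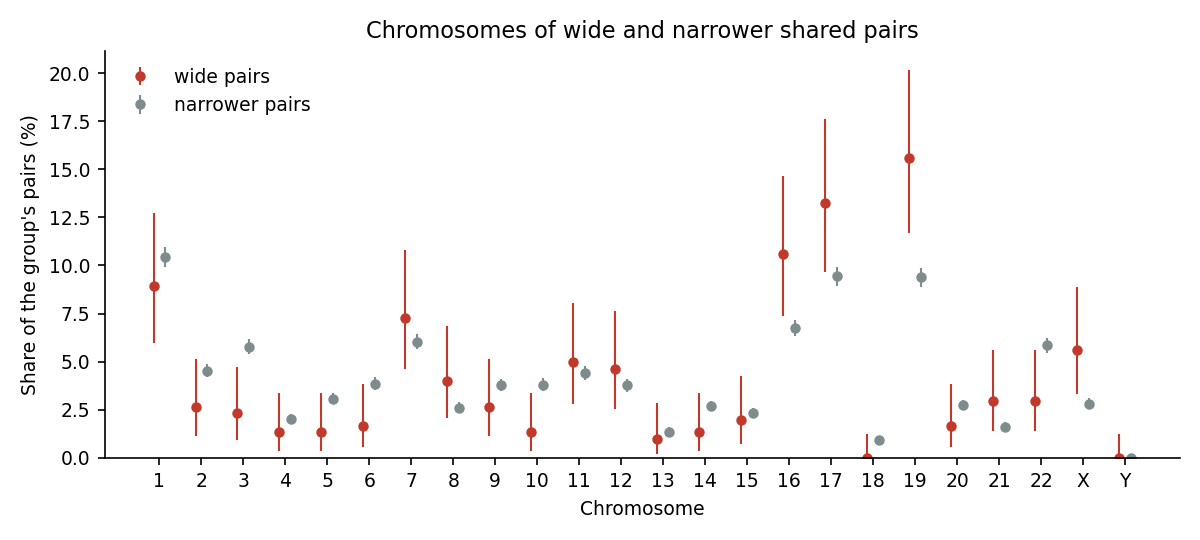
Share of wide pairs (red) and of narrower pairs (grey) on each chromosome (%), with 95% exact binomial intervals that cover counting error only. Chromosomes 16, 17 and 19 stand highest among wide pairs, at 10.6%, 13.2% and 15.6%.

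Strand showed little difference. The plus strand carried 149 wide pairs (49.3%, interval 43.6 to 55.1) and 52.7% of narrower pairs. The same positions listed on both strands accounted for 20 wide pairs (6.62%, 4.09 to 10.0) and 3.34% of narrower pairs. These are the same peaks counted for each strand, so which strand the RNA came from cannot be told. Their folds and −log10 p were the same on both strands, so for these peaks the values do not separate strands. For all other pairs strand is taken as listed, and how the lists assigned it was not checked. Examples are the pairs at chromosome 16, 89784031 to 89784174, with widths of 144 and 226 bases and folds of 4.41 and 6.68, where VPS9D1 lies on the minus strand and its antisense gene VPS9D1-AS1 on the plus strand.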

How the data were processed

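Of the 8 libraries, the peak lists of the 2 WT CLIP libraries and the deposited list of their overlapping pairs were analysed. Each peak's name gives MACS2, its library and p005, read here as a threshold of 0.005, so calling was done library by library. The submitters' processing notes name hg19 and, with no role or order, deepTools 3.2.1, bedtools 2.25.0, Novoalign 3.09.00, HOMER 4.11.1 and MACS2 2.1.1.20160309. Whether MACS2 was given input as control is not stated there. The deposited lists give each peak an unadjusted −log10 p, a score that is 10 times this value without its decimals, and a fold enrichment, which is a ratio. These are the authors' values, used to describe and rank peaks within a list. The unadjusted threshold keeps weak peaks. The 16 columns of the featureCounts 1.6.3 table and its summary match no sample label and were not used, so read counts and the knockout comparison were not analysed here.

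Width was end minus start. Rows that repeat a peak on its strand counted as 1 entry. Neighbour distances ran between the outer ends of pairs. Shares carry 95% exact Clopper-Pearson intervals. No test was run, since the pairs come from 1 pair of lists and were chosen by measured width. The members, lists and measures were chosen with earlier results of these data known. Named were the 12 widest pairs by the narrower peak, the 8 with the highest lower fold, runs of at least 3 wide pairs and the widest pair of each chromosome. Genes were named from general knowledge of hg19, and names that first disagreed with the annotation were corrected. The position of 1 run on chromosome X is not reported here. Counting was tested on simulated pairs with planted neighbours. Tools were scipy 1.17.1, pandas 2.3.3, numpy 2.4.6 and matplotlib 3.10.9 under Python 3.11.15. Alternatives changed the width threshold, the replicate that sets width, the overlap, strength, distance and strand.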

Additional observations from a re-analysis of the deposited data

How the results depend on the processing

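Of 65 recomputed values 52 differed little (by less than the main share's interval, or under 1.5 times for a count) and 13 moved. The plus-strand share, below that of narrower pairs in the main setting, was above it in 2 of 9 alternatives, at 53.2% against 52.6% for 60 bases and 54.4% against 52.5% with replicate 1 alone setting the width. The number of wide pairs, 302, was 1068 at 60 bases, 131 at 100 bases and 174 when both peaks had to be in the stronger 50%. With the width taken from 1 replicate it was 728 (replicate 1 alone) to 773 (replicate 2 alone). The share with a shared pair within 1 kb, 56.6%, was 49.3% at 60 bases, 66.4% at 100 bases, 44.7% for 500 bases and 76.5% for 5 kb, and 47.3% to 51.0% with 1 replicate setting the width. It exceeded that of narrower pairs in 12 of 12 alternatives. The share with a wide pair within 10 kb, 30.5%, was 17.5% for 1 kb and 40.7% for 100 kb. Chromosomes 16, 17 and 19 held 31.5% at 60 bases. Leaving out pairs listed on both strands or these 3 chromosomes, and the classes by width and strength, were added after seeing the data. Wide pairs rest on the shorter replicate 2 list and on unknown depth. No paired analysis was possible because no value here comes from a test between groups.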
